A study of Bos grunniens and Bos grunniens x Bos taurus with 12 samples.

Results

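The genes described here encode the calcium channel of the sperm tail (CatSper) and its partners in sperm cAMP and pH control. They were taken by symbol from the deposited gene tables: *CATSPER1* to *CATSPER4*, *CATSPERB*, *CATSPERD*, *CATSPERE*, *CATSPERG*, *ADCY10* and *SLC9C1*. Of these 10 symbols, 9 had a row, 1 row each, among the 20965 genes of the tables, and *CATSPER1*, a pore-forming subunit, had none under that symbol. The 7 CATSPER genes with a row were *CATSPER2* (ENSBGRG00000012305), *CATSPER3* (ENSBGRG00000001979), *CATSPER4* (ENSBGRG00000005907), *CATSPERB* (ENSBGRG00000016580), *CATSPERD* (ENSBGRG00000001388), *CATSPERE* (ENSBGRG00000009169) and *CATSPERG* (ENSBGRG00000026648). *ADCY10* was ENSBGRG00000007654 and *SLC9C1* was ENSBGRG00000000555.

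CatSper is a multi-subunit calcium channel of the sperm flagellum that opens when the cell interior becomes alkaline, and male mice or men that lack a pore subunit are infertile because their sperm cannot hyperactivate. *SLC9C1* encodes a sperm sodium/proton exchanger with a cyclic nucleotide-binding domain, which raises the pH inside the cell. *ADCY10* encodes the soluble adenylyl cyclase, which bicarbonate stimulates to make cAMP, and cAMP in turn activates protein kinase A during capacitation. These genes are read mainly in late male germ cells, the spermatocytes and spermatids.

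The study measured ribosome footprints (Ribo-seq) in whole testis, that is, pieces of mRNA shielded by ribosomes when the rest is digested, so a value reflects how many ribosomes sat on a gene's mRNA and not the mRNA level alone. There were 12 libraries in 4 groups of 3: yaks (*Bos grunniens*) of 6 months at the juvenile stage, yaks of 18 months at puberty, sexually mature yaks of 4 years, and cattle–yaks of 4 years, labelled sexually mature. Cattle–yaks are the hybrids of *Bos grunniens* and *Bos taurus*, here from Jersey bulls and Gannan yak cows by the study's methods, and their males are sterile. No treatment or engineered allele was given for any group, and all animals came from 1 herd cooperative by the labels, which name castration as the source of all testes, whereas the methods have the 4-year yaks sampled after euthanasia, so species and way of collection cannot be told apart.

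Library totals ran from 16304058 to 52616039 counts, with the 4-year yaks lowest (up to 17862516) and the cattle–yaks highest (38437889 and above), so 3 counts stood for 0.057 to 0.184 CPM (counts scaled to the library total). One library stood apart from its group: replicate 2 of the 18-month yaks correlated at 0.878 and 0.901 (Pearson's r of log2(CPM + 1) across genes) with the other two of its group, which correlated at 0.974, while pairs within the other groups correlated at 0.983 to 0.992. The same library held the spermatid markers of its group. The summed FPKM (fragments scaled by gene length and library total) of 8 round spermatid markers was 5.21, 882 and 9.85 in replicates 1, 2 and 3 of the 18-month yaks, and that of 5 elongating spermatid markers was 13.7, 7148 and 32.2. Each result on the 18-month yaks is therefore given with and without replicate 2. Markers of Sertoli cells (5 of the 10 listed had a row) and Leydig cells (4 of 10) were above 0 in every library.

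In sum over the 9 genes, FPKM was 247, 223 and 234 in the 4-year yaks, 7.42, 4.94 and 5.71 in the cattle–yaks, 2.19, 1.99 and 1.89 in the 6-month yaks, and 2.41, 120 and 3.03 in the 18-month yaks. The 4-year yaks were highest by far, and the cattle–yaks lay above the 6-month yaks but close to them. In bulk testis, fewer cells of a type and fewer footprints per cell cannot be told apart. The markers of round spermatids moved with these sums: 1537 to 2404 FPKM in the 4-year yaks, 5.23 to 11.7 in the cattle–yaks and 1.61 to 2.67 in the 6-month yaks, where 3 of the 8 were at 0 in each library. The elongating spermatid markers summed to 8851 to 12043, 76.1 to 159 and 9.12 to 16.8 in the same groups. Of these 5 markers 0, 1 and 3 were at 0 in replicates 1, 2 and 3 of the cattle–yaks. In the 6-month yaks 1, 2 and 1 were at 0, so these low sums came from part of the list. Spermatocyte markers (7 genes) differed less, with 480 to 487 in the 4-year yaks, 311 to 488 in the cattle–yaks and 125 to 188 in the 6-month yaks. Leydig and Sertoli cell markers moved the other way. In 4-year yaks, cattle–yaks and 6-month yaks, 4 Leydig cell markers summed to 118 to 272, 703 to 1256 and 1778 to 2654 FPKM. For 5 Sertoli cell markers the sums were 605 to 836, 1128 to 1384 and 6120 to 7566. Endothelial cell markers (5 genes) were at 12.7 to 15.3, 10 to 14.1 and 24.6 to 32.8. Macrophage markers (4 genes) were at 47.2 to 67.4, 41.2 to 52.1 and 48.9 to 60.3. For both lists the 4-year yaks and cattle–yaks overlapped. Spermatogonia markers (7 genes) were at 605 to 891, 1268 to 1413 and 302 to 447. The sums of 6 peritubular myoid cell markers were 363 to 413, 1313 to 2009 and 335 to 513, so that these were highest in the cattle–yaks. Markers of other motile cilia (4 genes) summed to 148 to 190, 20.6 to 65.5 and 11.4 to 12.5. The part of any of these cells in the results below was not tested.

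**Figure D1:**
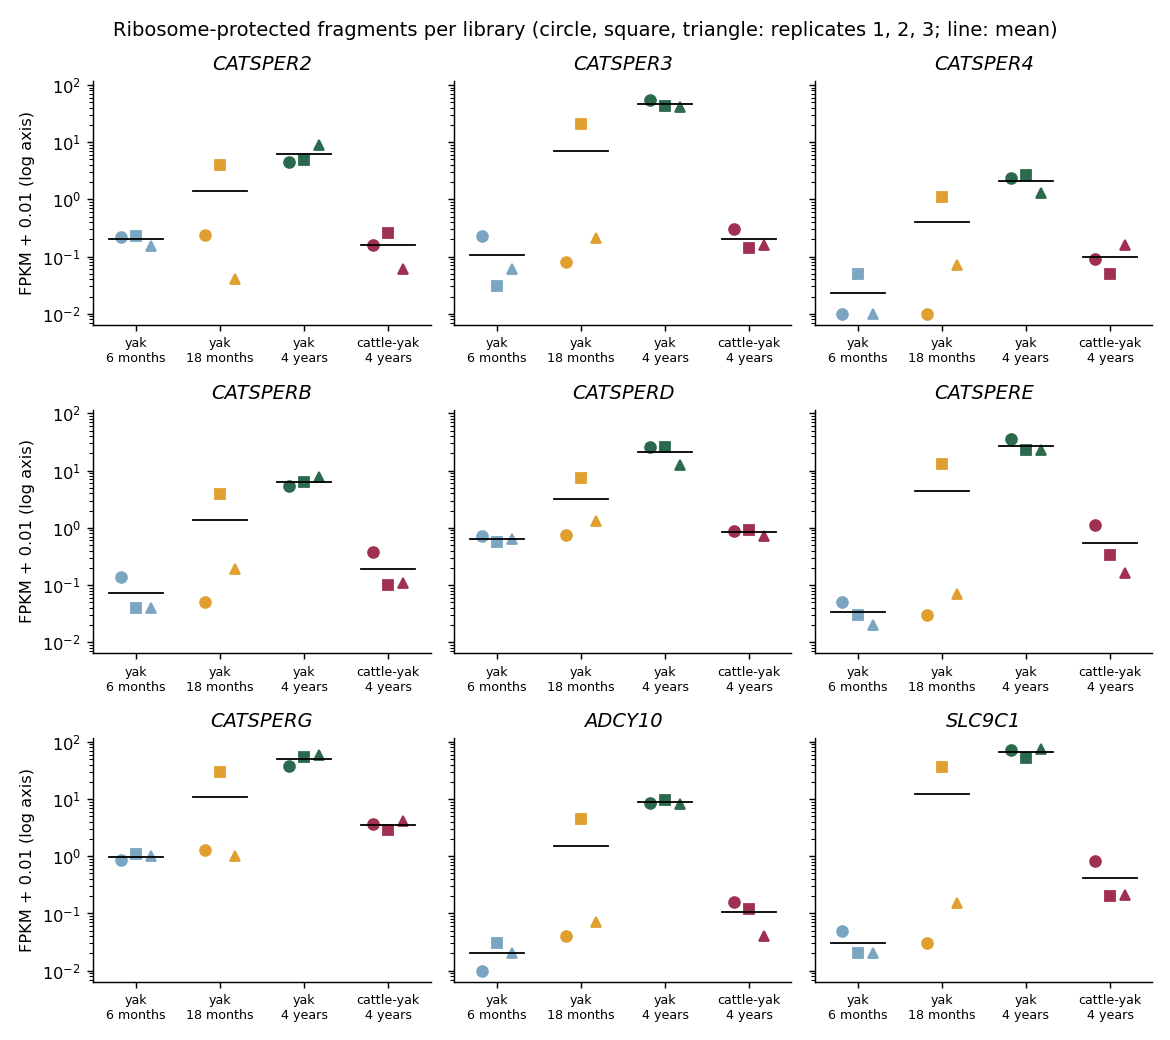
FPKM + 0.01 on a log axis of the 9 genes in each of the 12 libraries, by group (circles, squares and triangles are replicates 1, 2 and 3, and the line is the group mean). For every gene the 3 libraries of 4-year yaks lie above those of 6-month yaks and cattle–yaks, and in the 18-month yaks only replicate 2 approaches them.

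The pore-forming subunits with a row were *CATSPER2*, *CATSPER3* and *CATSPER4*. *CATSPER3* had an FPKM of 55.0, 42.9 and 40.4 in the 4-year yaks and 0.29, 0.13 and 0.15 in the cattle–yaks. It had 0.22, 0.02 and 0.05 in the 6-month yaks and 0.07, 20.8 and 0.20 in the 18-month yaks. Behind these values stood 1206, 945 and 812 counts in the 4-year yaks and 19, 6 and 7 in the larger cattle–yak libraries. The groups of 4-year yaks and cattle–yaks did not come near each other for this gene, which had the largest fold of the 9 with all libraries (without replicate 1 of the cattle–yaks its log2 fold change was -8.36 and that of *SLC9C1* -8.41).

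*CATSPER2* was read at 4.43, 4.96 and 8.91 FPKM in the 4-year yaks and at 0.15, 0.25 and 0.05 in the cattle–yaks. In the 6-month yaks it was at 0.21, 0.22 and 0.14, and in the 18-month yaks at 0.23, 3.98 and 0.03. The cattle–yaks overlapped the 6-month yaks, and replicate 3 of the 18-month yaks was the lowest library of all, with 1 count. *CATSPER4* was the lowest of the 9 genes in the 4-year yaks, at 2.38, 2.61 and 1.30 FPKM (61, 64 and 29 counts). It had 0.08, 0.04 and 0.15 in the cattle–yaks, 0, 0.04 and 0 in the 6-month yaks and 0, 1.10 and 0.06 in the 18-month yaks. Outside the 4-year yaks and replicate 2 of the 18-month yaks, no library had more than 8 counts of it.

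*CATSPERB*, *CATSPERD*, *CATSPERE* and *CATSPERG* encode auxiliary transmembrane subunits (beta, delta, epsilon and gamma) that stand around the pore with large extracellular parts. *CATSPERG* had an FPKM of 38.4, 55.3 and 57.8 in the 4-year yaks and 3.59, 2.91 and 4.18 in the cattle–yaks. It had 0.85, 1.07 and 1.02 in the 6-month yaks and 1.27, 29.7 and 1.02 in the 18-month yaks. It was the best measured of the 9 in the cattle–yaks and the 6-month yaks, with 391 to 657 counts in the cattle–yaks and 76 to 138 in the 6-month yaks, and those groups did not overlap.

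*CATSPERD* had 25.7, 25.5 and 12.6 FPKM in the 4-year yaks and 0.86, 0.90 and 0.70 in the cattle–yaks. In the 6-month yaks it had 0.70, 0.56 and 0.62, and in the 18-month yaks 0.73, 7.48 and 1.28. Replicate 3 was the low library of the 4-year yaks, and the cattle–yaks touched the 6-month yaks. *CATSPERE* had 35.8, 23.1 and 22.6 FPKM in the 4-year yaks and 1.13, 0.32 and 0.15 in the cattle–yaks. It had 0.04, 0.02 and 0.01 in the 6-month yaks (at most 3 counts) and 0.02, 12.9 and 0.06 in the 18-month yaks. Replicate 1 of the cattle–yaks was the highest of its group, with 171 counts against 36 and 16. *CATSPERB* had 5.34, 6.23 and 7.71 FPKM in the 4-year yaks and 0.36, 0.09 and 0.10 in the cattle–yaks. It had 0.13, 0.03 and 0.03 in the 6-month yaks and 0.04, 3.83 and 0.18 in the 18-month yaks. Again replicate 1 was the high one of the cattle–yaks, and the cattle–yaks and 6-month yaks overlapped.

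*SLC9C1*, the exchanger, had the highest mean of the 9 genes in the 4-year yaks, at 71.2, 53.0 and 74.9 FPKM (4382, 3274 and 4227 counts). It had 0.81, 0.19 and 0.20 in the cattle–yaks, 0.04, 0.01 and 0.01 in the 6-month yaks and 0.02, 36.1 and 0.14 in the 18-month yaks. Its 148 counts in replicate 1 of the cattle–yaks stood above the 25 and 27 of the others. *ADCY10*, the soluble cyclase, had 8.64, 9.70 and 8.05 FPKM in the 4-year yaks and 0.15, 0.11 and 0.03 in the cattle–yaks. It had 0, 0.02 and 0.01 in the 6-month yaks and 0.03, 4.45 and 0.06 in the 18-month yaks. With an SD of 0.836 on a mean of 8.80 FPKM (n = 3) it varied least of the 9 among the 4-year yaks for its level.

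Since FPKM is per length, the genes can be ranked within a group. In the 4-year yaks the order of the mean FPKM was *SLC9C1* (66.3 ± 11.7, SD, n = 3), *CATSPERG* (50.5 ± 10.5), *CATSPER3* (46.1 ± 7.80), *CATSPERE* (27.2 ± 7.46), *CATSPERD* (21.3 ± 7.50), *ADCY10* (8.80 ± 0.836), *CATSPERB* (6.43 ± 1.20), *CATSPER2* (6.10 ± 2.45) and *CATSPER4* (2.10 ± 0.699). The ranges of *SLC9C1* and *CATSPERG*, of *CATSPERG* and *CATSPER3*, of *CATSPERE* and *CATSPERD*, and of *CATSPERB* and *CATSPER2* overlapped, so these neighbours in FPKM were not separated, whereas the other neighbours had ranges apart. Beyond neighbours, *SLC9C1* (from 53.0) overlapped *CATSPER3* (up to 55.0), and *ADCY10* (from 8.05) overlapped *CATSPER2* (up to 8.91). In the cattle–yaks *CATSPERG* came first (3.56 ± 0.636, SD, n = 3), clear of *CATSPERD*, and each later neighbour overlapped the next. In the 6-month yaks *CATSPERG* and *CATSPERD* led again with separate ranges, and the ranges of the other 7 overlapped from neighbour to neighbour.

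The comparison of the study was cattle–yak against yak at 4 years. Every one of the 9 genes was lower in the cattle–yaks, by 14.1-fold for *CATSPERG* up to 228-fold for *CATSPER3*. All 9 passed the filter on low counts and the test (adjusted p below 0.05 and at least 2-fold, by edgeR's quasi-likelihood fit and the Benjamini-Hochberg method over 16498 genes), and their CPM did not overlap between the groups. Of all genes tested, 44.0% were called, 27.0% as lower, and 36.8% had non-overlapping lower CPM in the cattle–yaks. *CATSPER2*, *CATSPER3*, *CATSPER4*, *CATSPERB* and *ADCY10* would not have passed the filter on the cattle–yak libraries, so they could hardly be called higher.

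For the pore subunits the log2 fold change, cattle–yak over yak, was -7.83 for *CATSPER3* (standard error 0.322, adjusted p = 7.47e-07), -5.29 for *CATSPER2* (standard error 0.535, adjusted p = 5.5e-05) and -4.51 for *CATSPER4* (standard error 0.564, adjusted p = 0.000185), all by the edgeR fit with Benjamini-Hochberg adjusted p. For the auxiliary subunits it was -3.81 for *CATSPERG* (0.204), -4.69 for *CATSPERD* (0.325), -4.93 for *CATSPERB* (0.480) and -5.60 for *CATSPERE* (0.658), standard errors in parentheses. *SLC9C1* had -7.29 (standard error 0.580) and *ADCY10* had -6.43 (standard error 0.415). The median over the 9 genes was -5.29, beside a median of -0.0022 over all genes tested, and no other scaling tried moved the latter by over 0.1. Replicate 1 of the cattle–yaks was the highest of its group for *CATSPER3*, *CATSPERB*, *CATSPERE*, *ADCY10* and *SLC9C1*. Without it the log2 fold change was -8.36 for *CATSPER3*, -5.83 for *CATSPERB*, -6.86 for *CATSPERE* and -8.41 for *SLC9C1*, each a larger decrease. All 9 genes were still called.

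**Figure D2:**
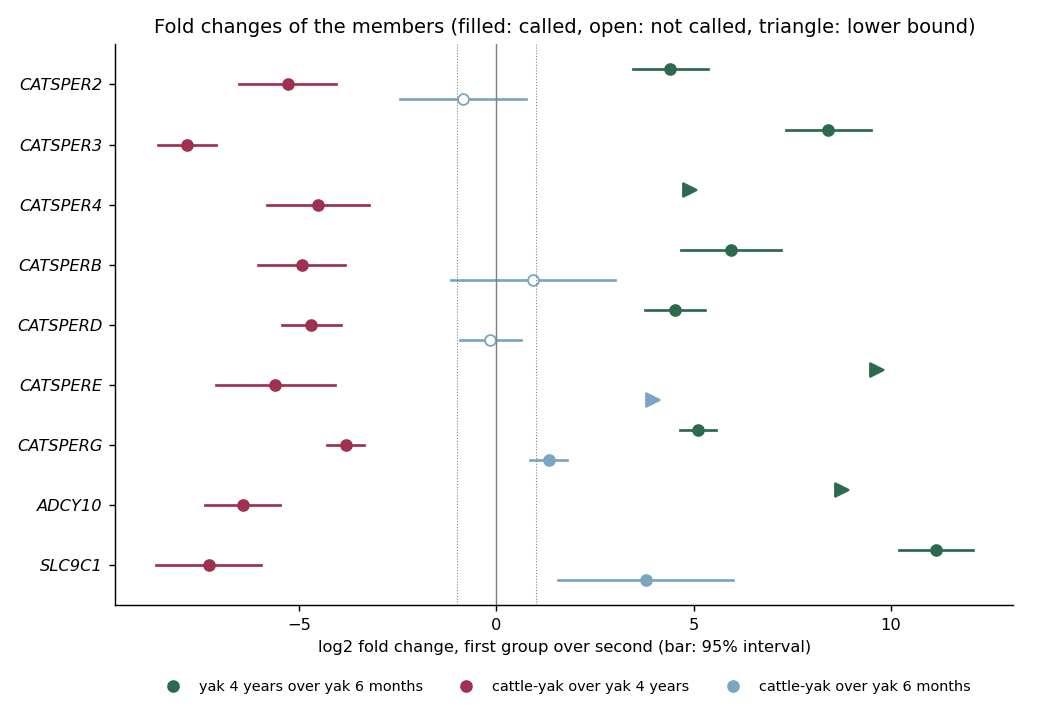
Log2 fold change of each gene with its 95% interval in 3 comparisons (filled points are called, open points tested and not called). Triangles are lower bounds, against 3 counts per library, for genes with at most 3 counts in every 6-month library, and genes with no mark in a comparison did not pass its filter. All 9 genes lie below -3 in cattle–yak over 4-year yak and above 4 in 4-year over 6-month yak.

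As a share of the mean FPKM in the 4-year yaks, the cattle–yak level was 7.05% ± 1.26 (SD, n = 3) for *CATSPERG*, 4.29% ± 2.66 for *CATSPER4*, 3.85% ± 0.497 for *CATSPERD*, 2.85% ± 2.38 for *CATSPERB*, 2.46% ± 1.64 for *CATSPER2* and 1.96% ± 1.93 for *CATSPERE*. It was 1.10% ± 0.695 for *ADCY10*, 0.603% ± 0.535 for *SLC9C1* and 0.412% ± 0.189 for *CATSPER3*. The subunits' shares were compared as well. *CATSPERG* took 64.9% ± 10.5 (SD, n = 3) of the summed FPKM of the 7 CATSPER genes in the cattle–yaks and 31.9% ± 7.91 in the 4-year yaks, while *CATSPER3* took 3.34% ± 0.993 and 28.8% ± 3.59. For both genes the 3 libraries of each group lay apart, with p = 0.1 in a two-sided exact permutation test, the smallest that 3 against 3 allows (0.35 after Benjamini-Hochberg adjustment over the 7 genes). The test could thus not fall below 0.05, and the shares restate the same FPKM values as the levels above. The shares of the other 5 subunits overlapped between the groups, with exact permutation p from 0.3 to 0.8.

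**Figure D3:**
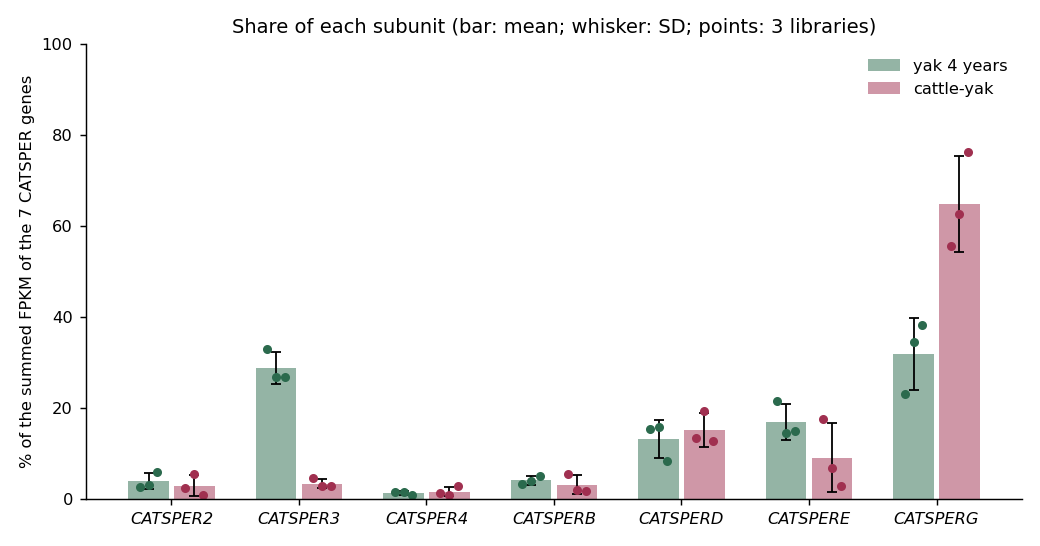
Share of each subunit in the summed FPKM of the 7 CATSPER genes, in percent, for 4-year yaks and cattle–yaks (bars are means, whiskers SD, points the 3 libraries). *CATSPERG* is at 31.9% in the yaks and 64.9% in the cattle–yaks, and *CATSPER3* at 28.8% and 3.34%.

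Across the ages of the yak, the clear difference was between 6 months and 4 years. All 9 genes were higher at 4 years and called, and their CPM did not overlap (background 55.7% of 16133 genes called, 31.0% as higher, and 53.1% with higher CPM that did not overlap, by the same edgeR method). Except for *CATSPERD* and *CATSPERG*, the genes passed the filter through the 4-year yaks alone and could hardly be called lower. The log2 fold change was 4.42 for *CATSPER2*, 4.52 for *CATSPERD*, 5.12 for *CATSPERG*, 5.95 for *CATSPERB*, 8.41 for *CATSPER3* and 11.14 for *SLC9C1*. *CATSPERE*, *ADCY10* and *CATSPER4* had at most 3 counts in every 6-month library, so only bounds can be given: at least 799-fold, 436-fold and 29.8-fold higher at 4 years, against a floor of 3 counts per library. The edgeR adjusted p of the 9 genes ran from 7.96e-08 to 0.000124. The median log2 fold change with those genes at their bound was 5.95, beside 0.08 over all genes tested, which scaling by library size alone moved to 0.64 without turning any of the 9. With so few counts at 6 months, single libraries moved the fold: the log2 fold change was 9.69 for *CATSPER3*, 7.15 for *CATSPERB* and 12.23 for *SLC9C1* without replicate 1 of the 6-month yaks, and 7.82 for *CATSPER3* without their replicate 2.

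The 18-month yaks did not form 1 level. Against the mean CPM of the 4-year yaks, replicate 2 reached 35.1% (*CATSPERD*) to 65.6% (*CATSPER2*) over the 9 genes, with a median of 54.5%. Replicate 1 lay between 0 and 3.80% (median 0.392%) and replicate 3 between 0.208% and 6.01% (median 0.666%). Replicate 2 was far above the other two in all 9 genes, and in the spermatid marker sums given above. Its spermatocyte markers stood higher too but less widely (181, 414 and 245 FPKM in replicates 1, 2 and 3). The part of these cells in the difference was not tested.

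**Figure D4:**
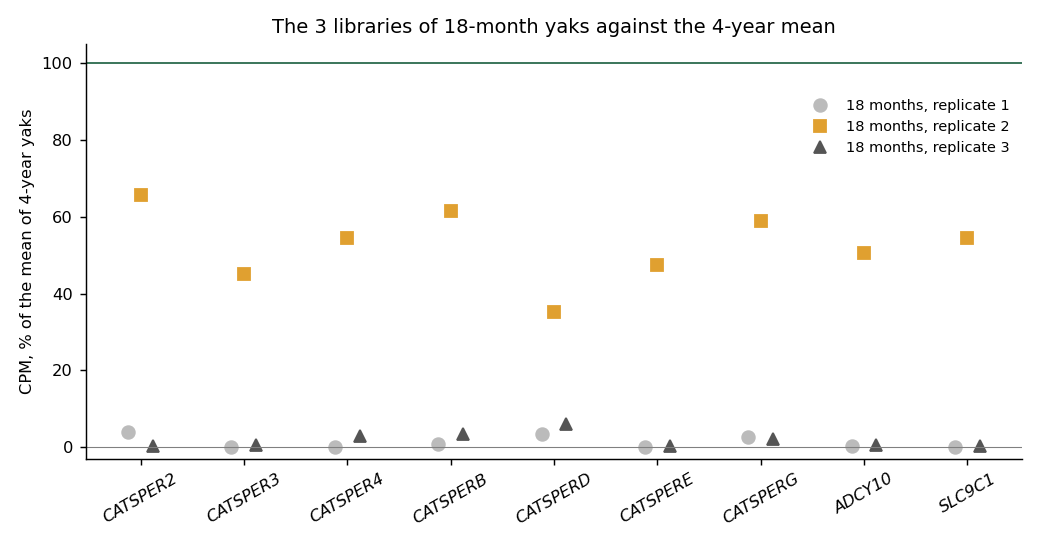
CPM of the 9 genes in each library of the 18-month yaks, as a percentage of the mean of the 4-year yaks (line at 100%). Replicate 2 lies between 35.1% and 65.6%, and replicates 1 and 3 at 6.01% or below.

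In 4-year over 18-month yaks, the log2 fold changes of the 9 genes lay between 2.03 and 2.68 with 95% intervals such as -1.65 to 7.01 for *CATSPER3*, and 0 were called (adjusted p from 0.103 to 0.391 in edgeR). Of all 16175 genes tested, 0.0371% were called. One of the 9, *CATSPERD*, had an unadjusted p below 0.05 (0.0222), DESeq2 called 1, and limma called 0 with all 9 below 0.05 unadjusted. The CPM of the groups did not overlap for all 9, as for 31.2% of all genes in this direction. Without replicate 2 of the 18-month yaks all 9 were called as higher at 4 years (adjusted p from 1.02e-05 to 0.00165), from 4.21 for *CATSPERD* to 9.41 for *SLC9C1* on the log2 scale, where 44.6% of 16377 genes were called and 26.1% as higher. *CATSPER4*, with at most 3 counts in the remaining 18-month libraries, was at least 23.6-fold higher. Here too the genes other than *CATSPERD* and *CATSPERG* passed the filter through the 4-year yaks alone.

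In 18-month over 6-month yaks, 2 of the 9 genes passed the filter and 0 were called, where 0.0672% of 14874 genes were called. *CATSPERG* had a log2 fold change of 3.02 (95% interval 0.10 to 5.94, adjusted p = 0.185 in edgeR) and *CATSPERD* 1.90 (-0.04 to 3.85, adjusted p = 0.201). *CATSPERG* had an unadjusted p of 0.0446, and DESeq2 and limma called none of the 9, with 2 and 0 of them below 0.05 unadjusted. Without replicate 2 of the 18-month yaks these values were -0.053 (-0.83 to 0.73) and 0.34 (-0.69 to 1.37), so the values of both genes rested largely on that library. In that setting 3 of the 9 were tested and 0 called (0 also at an unadjusted p below 0.05), where 0.504% of all genes were called.

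The cattle–yaks were also set against the younger yaks, where species and age differ together and cannot be told apart. Over the 6-month yaks, 3 genes were higher in the cattle–yaks, all 3 libraries of each above all 3 of the other group: *CATSPERG* by 1.33 on the log2 scale (standard error 0.206, adjusted p = 0.00086), *SLC9C1* by 3.78 (standard error 0.963, adjusted p = 0.0099) and *CATSPERE* by at least 15.6-fold (adjusted p = 0.00865), by edgeR. Here 37.8% of 15571 genes were called, 18.1% as higher, and 50.9% had higher CPM that did not overlap. In this comparison scaling by library size alone moved the median log2 fold change of all genes from -0.018 to 0.52. All genes called as higher then went from 2823 to 4867, and 3 of the members were still called. *SLC9C1* and *CATSPERE*, with at most 4 counts in each 6-month library, passed the filter through the cattle–yaks alone. These genes could therefore hardly be called lower. *CATSPER2* (-0.85, 95% interval -2.45 to 0.74), *CATSPERB* (0.93, -1.14 to 3.0) and *CATSPERD* (-0.16, -0.93 to 0.62) were tested and not called, and the sign of *CATSPERD* turned under scaling by library size alone (0.39). *CATSPER3*, *CATSPER4* and *ADCY10* did not pass the filter, and *ADCY10* was at least 4.80-fold higher against the floor, with 39, 20 and 6 counts against 0, 3 and 1. Single libraries moved 3 of the values: without replicate 1 of the cattle–yaks *SLC9C1* was at 2.72 and *CATSPERE* at 2.77, both still called, and *CATSPERB* at 0.073. Without replicate 1 of the 6-month yaks the log2 fold changes of these genes were 4.98, 4.59 and 2.21, the last still not called. With all 12 libraries in 1 fit 0 of the 9 were called (0 at an unadjusted p below 0.05).

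Over the 18-month yaks, 7 genes were tested and 0 called in the cattle–yaks (background 5.80% of 15702 genes by edgeR). The log2 fold changes ran from -4.88 for *SLC9C1* to -1.58 for *CATSPERG*, 1 of the 7 (*CATSPERD*, 0.047) had an unadjusted p below 0.05, and DESeq2 and limma called 0 as well, with 3 and 0 below 0.05 unadjusted. Without replicate 2 of the 18-month yaks *CATSPERG* was higher in the cattle–yaks by 1.40 on the log2 scale (standard error 0.297, adjusted p = 0.0248), where 15.3% of genes were called and 7.22% as higher. In that setting *CATSPERE* had 3.68 (0.81 to 6.54, adjusted p = 0.0712), *SLC9C1* 2.11, *ADCY10* 0.86, *CATSPERB* 0.41, *CATSPER2* -0.05 and *CATSPERD* -0.48, none of them called.

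Further genes of the pathway were taken from lists chosen with earlier results of these data known, so their values are given as description. Of 8 other CatSper subunits and partners, 4 had a row, and all 4 fell in cattle–yak over 4-year yak and rose in 4-year over 6-month yak. Among all genes, 44.0% were called in the first comparison, 27.0% as lower, and 55.7% in the second, 31.0% as higher. *EFCAB9*, the calcium sensor of the channel, had an FPKM of 89.0 ± 24.3 (SD, n = 3) in the 4-year yaks and 0.263 ± 0.134 in the cattle–yaks, a log2 fold change of -8.35. *TMEM249* had -5.44 and *ABHD2*, the progesterone-binding lipid hydrolase, -2.46. *LRRC52*, better known as the partner of the sperm potassium channel, had 0, 2 and 0 counts in the cattle–yaks and was at least 382-fold lower there than in the 4-year yaks (27.3 ± 2.58 FPKM). Their median, with *LRRC52* at its bound, was -6.90. With its few counts in the cattle–yaks *LRRC52* passed the filter through the 4-year yaks alone and could hardly be called higher. The same limit holds for every gene of the lists below, and every row found by description, with so few counts in the cattle–yaks. Genes with so few counts at 6 months could likewise hardly be called lower in 4-year over 6-month yak. Searched by description, 1 row without a symbol named *CATSPERZ* (ENSBGRG00000026686), which had 195 ± 14.3 FPKM in the 4-year yaks and 2.0 ± 0.520 in the cattle–yaks, a log2 fold change of -6.57, and another named *C2CD6*, with -4.47.

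Of 16 genes for potassium, proton and other ion transport in sperm, 14 had a row and 13 were tested. In cattle–yak over 4-year yak 0 were higher, 8 were lower and 5 were not called (median -1.52), beside 44.0% of all genes called and 27.0% as lower. *ATP1A4*, the sperm sodium pump, had a log2 fold change of -7.47, *SLC26A8*, an anion transporter of sperm, -6.71 and *KCNU1*, the sperm potassium channel, -4.95. *PKD2*, a broadly used cation channel, had -0.047 and was not called. The 3 rows without a symbol and described as *SLC9C2*, a relative of *SLC9C1*, had -5.58, -6.57 and -1.26, all called. In 4-year over 6-month yak 7 of 13 were higher and 3 lower (1 lower with scaling by library size alone), where 55.7% of all genes were called and 31.0% as higher.

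The lists of cyclases and of kinase A genes held calls in both directions in cattle–yak over 4-year yak, in shares to be read beside the 44.0% of all genes called there. Of 8 transmembrane adenylyl cyclases tested, which answer to G proteins and not to bicarbonate, 3 were higher and 2 lower in cattle–yak over 4-year yak (median 0.46): *ADCY8* had 1.57, *ADCY3* 1.14 and *ADCY5* 1.13, against *ADCY2* with -1.88 and *ADCY4* with -1.43. In 4-year over 6-month yak 0 of the 8 were higher and 5 lower, or 1 and 3 with scaling by library size alone. The 2 rows without a symbol and described as *ADCY1* went against these: they had -4.36 and -5.53 in cattle–yak over 4-year yak, and in 4-year over 6-month yak 1 was at least 12.8-fold higher and the other at 5.70, all called. Of 11 kinase A subunits and other cAMP receptors tested, 3 were higher and 2 lower in the cattle–yaks (median -0.08), a share near that of all genes. *PRKACA*, a catalytic subunit, had 243 ± 15.5 FPKM in the cattle–yaks and 188 ± 11.5 in the 4-year yaks (log2 fold change 0.39, adjusted p = 0.016 in edgeR), a difference below 2-fold that was not called. *PRKACB* had 2.02, *RAPGEF3* 2.30 and *RAPGEF4* 2.38, the last 2 being cAMP-gated exchange factors, whereas *CNBD2*, a cyclic nucleotide-binding protein of sperm, had -5.65 and *CREM*, the cAMP-responsive regulator of spermatid genes, -4.67.

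Of 14 kinase A anchors and their ligands, 5 had a row by symbol, and 0 were higher and 2 lower in cattle–yak over 4-year yak (median -0.47): *AKAP3*, of the fibrous sheath, with -7.62 and *AKAP1*, of the mitochondrial surface, with -2.23. Rows found by description added *AKAP4* (-7.90), *ROPN1* (-8.20), *CABYR* (-4.80), *FSIP2* (-4.73) and *SPA17* (-3.44), all proteins of the sperm tail, and *AKAP14*, which had 0 counts in all 3 cattle–yak libraries and was at least 84.4-fold lower. Of 11 phosphodiesterases tested, which break down cyclic nucleotides, 2 were higher and 5 lower (median -0.60). The counts of anchors and phosphodiesterases stand beside 44.0% of all genes called in cattle–yak over 4-year yak, and 27.0% as lower. *PDE10A* had -4.62, *PDE1A* -4.36 and *PDE4A* -3.87, *PDE4B* had 2.47 and *PDE7B* 2.49, and *PDE8A* had 0.17 and was not called. Rows described as *PDE4C*, *PDE8B* and *PDE11A* had 0.99, -0.079 and -0.95, none of them called. In 4-year over 6-month yak, 3 of the 11 kinase A genes and receptors were higher and 4 lower, 3 of the 5 anchors higher and 0 lower, and 5 of the 11 phosphodiesterases higher and 3 lower, again beside 55.7% of all genes called and 31.0% as higher.

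**Figure D5:**
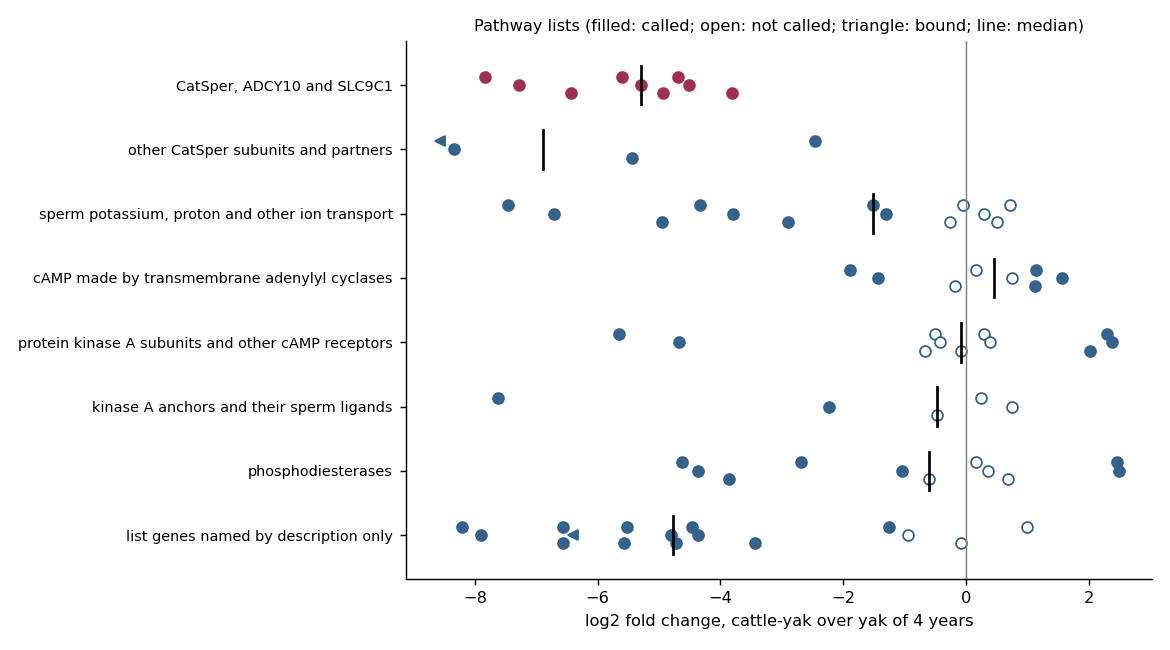
Log2 fold change, cattle–yak over yak of 4 years, of the 9 genes and of the pathway lists (1 point a gene, filled where called and open where tested and not called, the triangles at a bound, the line at the median). The 9 genes and the other CatSper genes lie wholly below 0, with medians of -5.29 and -6.90, while the lists of cyclases, kinase A genes, anchors and phosphodiesterases lie on both sides.

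Over the 12 libraries the 9 genes followed each other, with Pearson's r of log2(CPM + 1) between 0.927 and 0.996 for pairs of them (median 0.977), a value that the few high libraries set. The genes most like the mean profile of the 7 CATSPER genes among 12072 compared were *PKD2L2*, *IQCA1L*, *ZAN*, *PRX* and *FER1L5*, each with r of 0.999. For *ADCY10* they were *JHY*, *FER1L5* and *PRX*, and for *SLC9C1* *CDKL3*, *ANKAR* and *TTLL6*. As many as 1262 genes had r above 0.95 with the CATSPER profile, so the pattern was not theirs alone, and under log2(FPKM + 1) 2 of the first 5 names stayed, under Spearman's correlation 1.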

How the data were processed

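Ribo-seq libraries of 12 testes were read from 3 deposited comparison tables, whose library columns repeat without a differing value. By the study's methods, the authors trimmed reads, removed structural RNAs, aligned footprints of both species to the yak genome with STAR and quantified genes with RSEM, and the labels name Bowtie2 and RSEM without versions. The deposited counts are whole numbers per gene, and the FPKM values are the authors' normalization by length and library total. The authors' columns of group means, fold changes, p-values and FDR were not used.

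Groups were fitted in pairs with edgeR 4.0.16 (R 4.3.3): filterByExpr, TMM scaling, quasi-likelihood test, Benjamini-Hochberg adjustment over all genes tested, and a call at adjusted p below 0.05 and at least 2-fold. The thresholds are those of the methods. The 6 pairs of the 4 groups were compared. Alternatives were other scalings, no filter, DESeq2 1.42.0, limma 3.58.1 on log2(FPKM + 1) and log2(FPKM + 0.1), all libraries in 1 fit, blocks by replicate number and fits that drop each library in turn. The fit was tested on simulated data. Shares were compared by exact permutation (scipy 1.17.1). Fold bounds use a floor of 3 counts per library, which covers counting error only.

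The rule for named genes took all members, up to 3 called genes of each list with the largest changes and 1 not called, and the genes most alike in profile, and the list genes named beyond it (*ADCY3*, *ADCY5*, *PRKACB*, *RAPGEF3*, *PDE4B*, *PDE7B*, the fourth CatSper partner and those found by description) were chosen after their values were seen. The members and lists were chosen with earlier results of these data known, and list genes without a symbol were looked up by description after the tables were seen. Nothing says more of the replicates than 1 library per animal, so p-values measure the spread between these samples. The tables give no gene positions or sequences, and none are printed.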

Additional observations from a re-analysis of the deposited data

How the results depend on the processing

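The 9 calls in cattle–yak over 4-year yak and in 4-year over 6-month yak stood in every setting tried, all with 9 called. Pseudocounts shrank the log2 fold changes of low genes under limma. The other comparisons moved. Called members: 18 over 6 months (0 in the report) 4 with all 12 libraries in 1 fit and 0 to 1 with 1 library left out. 4 years over 18 months (0) had 1 by DESeq2, 1 in 1 fit and 0 to 9 with 1 library left out. Cattle–yak over 6 months (3) had 0 in 1 fit and 1 by limma on log2(FPKM + 1). Cattle–yak over 18 months (0) had 1 in 1 fit and 0 to 1 with 1 library left out. The cause was not tested.

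All genes called in 18 over 6 months (10) were 153 by library size, 130 by upper quartile, 3 unfiltered, 1879 by DESeq2, 2655 in 1 fit, 147 and 387 by limma with a pseudocount of 1 and 0.1, and 0 to 2593 with 1 library left out. In 4 years over 18 months (6) they were 3279 by DESeq2, 3486 in 1 fit, 72 and 27 by limma, and 0 to 7310 with 1 library left out. In cattle–yak over 6 months (5890) they were 8982 without a minimum fold. In cattle–yak over 18 months (910) they were 599 unfiltered, 2433 by DESeq2, 2613 in 1 fit and 0 to 2464 with 1 library left out.

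Signs turned for *CATSPERG* in 18 over 6 months (-0.053 to 3.55 with 1 library left out), for *CATSPERD* in cattle–yak over 6 months (0.39 by library size, 0.16 and 0.34 by limma, -0.28 to 0.014 with 1 library left out), and in cattle–yak over 18 months for *CATSPERG* by limma with 0.1 (0.018). In the same comparison 5 genes had their highest values, all above 0, with replicate 2 of the 18-month yaks left out. With 1 library left out *CATSPERB* ran from -3.69 to 0.41, *CATSPERE* from -4.24 to 3.68, *CATSPERG* from -2.10 to 1.40, *ADCY10* from -4.48 to 0.86 and *SLC9C1* from -5.99 to 2.11.

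Same-numbered libraries did not pair. Of 18 pairs 2 correlated above 0.1 in their deviations (-0.354 to 0.129), and 4 correlated best with their own number. With the replicate block the called members were 9, 0, 0, 9, 3 and 0, as without it. All genes called with the block were 7147 (cattle–yak over 4 years), 538 (18 over 6 months), 0 (4 years over 18 months; 4815 at an unadjusted p below 0.05), 8726 (4 years over 6 months), 5599 (cattle–yak over 6 months) and 1 (cattle–yak over 18 months), and the block turned *CATSPERE* (0.64) and *CATSPERG* (0.21) there. Low counts limit the folds over the 6-month yaks, where 3 of the 9 genes had at most 3 counts in every library, although these libraries were deeper than those of the 4-year yaks.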
